A study of Mus musculus with 8 samples.

Results

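Embryonic globins and other genes of the red cell lineage were examined in dissected tissue of the posterior second heart field (pSHF), mesoderm that lies behind the heart tube and contributes to the atrial septum. The 9 genes were Hba-x, Hba-a1, Hbb-bh1, Hbb-y, Alas2, Klf1, Epor, Slc4a1 and Tfrc, out of 27827 gene names on the array. They were found by gene name among the spots other than controls, which gave 10 probes, and all 10 were bright enough to be tested. The tissue came from mouse embryos at E9.5 on a mixed genetic background, whose mothers had received serum gonadotropin of pregnant mares together with human chorionic gonadotropin. One group was heterozygous for a Tbx5 mutation (Tbx5+/-, written Tbx5-/+ in the labels) and the other was wild-type, with 4 arrays in each. Each array held RNA pooled from an unstated number of embryos, and the titles carry the embryo numbers 1, 5, 6 and 7 in either genotype. The methods name no Cre driver for the Tbx5 line and refer to an earlier report for it.

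Red cells of the early embryo come from the yolk sac and circulate with their nuclei while they mature. They make embryonic haemoglobin, in which zeta globin (Hba-x) and the embryonic beta-like globins (Hbb-bh1, then Hbb-y) come before or beside the alpha globin of later life (Hba-a1). Globin is produced together with haem, whose synthesis in erythroid cells starts with Alas2, and iron for it enters through the transferrin receptor Tfrc. The program is driven by transcription factors such as Klf1 and sustained by erythropoietin through Epor, and the mature cell carries the anion exchanger Slc4a1 in its membrane. Dissected embryonic tissue includes the blood in its vessels.

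The globin probes are shown because the comparisons between globins rest on their sequences. Each is 60 bases long and is given 5′ to 3′ as deposited. Capitals mark, for Hbb-bh1, the 40 bases that its probes share and, for the pair of alpha globins, the bases that were identical where their probes overlap. The Hba-a2 probe is not one of the 10 and is shown for that overlap only.
Hba-x: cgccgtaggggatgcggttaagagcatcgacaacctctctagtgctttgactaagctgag
Hba-a1: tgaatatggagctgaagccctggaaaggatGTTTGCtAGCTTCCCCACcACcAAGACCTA
Hba-a2: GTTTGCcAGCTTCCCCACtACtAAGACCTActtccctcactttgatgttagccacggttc
Hbb-bh1, first probe: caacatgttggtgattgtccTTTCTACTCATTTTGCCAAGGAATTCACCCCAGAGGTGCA
Hbb-bh1, second probe: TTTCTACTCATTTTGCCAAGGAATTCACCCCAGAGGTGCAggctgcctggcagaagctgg
Hbb-y: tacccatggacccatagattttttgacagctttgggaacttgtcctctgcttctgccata
On mm9, the build of the array files, these probes lay on the plus strand at chr11:32177668-32177727 (Hba-x) and chr11:32183775-32183956 (Hba-a1), and on the minus strand at chr7:110990327-110990386 and chr7:110990307-110990366 (Hbb-bh1) and chr7:111001412-111001471 (Hbb-y). The Hba-a1 probe covered 182 genomic bases and so joined 2 separate stretches. Its accession list in the files also named the Hba-a2 transcript, and 27 of the 30 overlapping bases of the Hba-a1 and Hba-a2 probes were identical, so signal from these near-identical genes cannot be told apart. Between probes of different globin members the longest shared run was 7 bases (Hbb-bh1 and Hbb-y). The other probes lay at chrX:147004993-147005052 (Alas2), chr8:87428881-87428940 (Klf1) and chr16:32632255-32632314 (Tfrc) on the plus strand, and at chr9:21763422-21763481 (Epor) and chr11:102210256-102210315 (Slc4a1) on the minus strand.

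Values are log2 intensities after variance stabilizing normalization (VSN), and a difference is the mutant mean minus the wild-type mean on that scale. A probe was tested if all 4 arrays of a genotype showed it well above background, which held for 20031 of 41174, and p-values from limma were adjusted over all of these. The median probe differed by -0.19 under VSN, so differences of single genes are also given relative to it where that matters. Tbx5 itself, the check of the labels, had 9.01, 9.73, 9.16 and 8.62 in Tbx5+/- numbers 1, 5, 6 and 7 against 11.47, 11.56, 10.42 and 11.54 in wild-type. The groups did not overlap, and the difference was -2.12 (adjusted p = 0.092, and 0.0336 with embryo number as a block). All 10 genes of a pSHF marker list and all 10 of a cardiomyocyte list were tested, so muscle transcripts were present beside those of the mesoderm. The p-values measure only the spread between these pools. In tissue RNA, fewer cells of a type and less RNA per cell cannot be told apart.

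The first question was whether the blood genes differed with the Tbx5 allele. Of the 10 probes 0 passed the limma test at an adjusted p of 0.05, where the share over all probes tested was 0%. An unadjusted p under 0.05 was found for 0 of the 10, against 4385 of the 20031 probes tested. None of the 10 had 4 mutant values all below or all above the wild-type values. Over all probes with a value on every array, 8.98% had all mutant values lower and 0.744% had all higher. With embryo number as a replicate block, 11.1% of all probes passed (2142 lower and 76 higher), and still 0 of the 10. In that fit 6 of the 10 had an unadjusted p under 0.05, as did 34.9% of all probes.

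**Figure D1:**
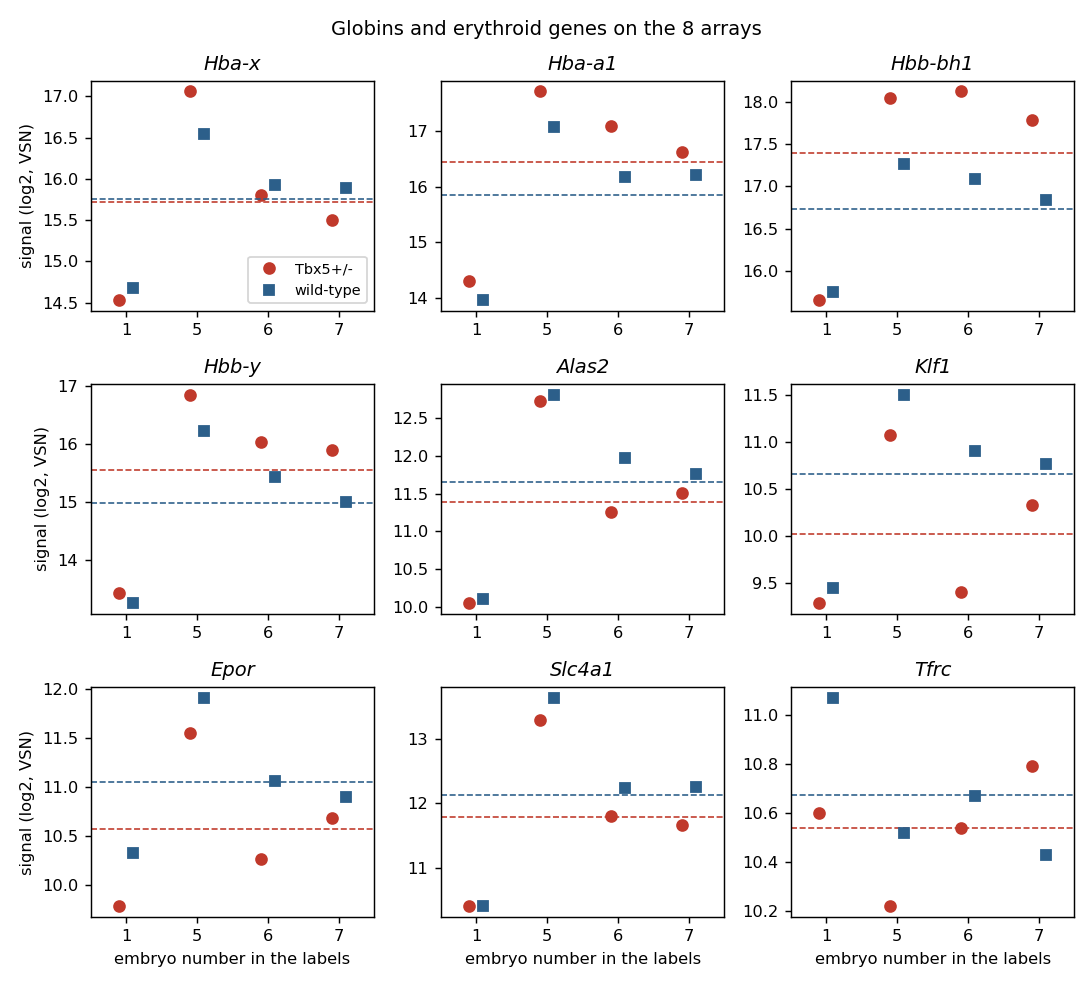
Signal (log2, VSN) of the 9 genes by embryo number on the 8 arrays, 1 panel a gene with its own axis; red circles are Tbx5+/- samples, blue squares wild-type samples and dashed lines the group means. Groups overlap in every panel, and both samples of number 1 lie at the bottom in all panels but those of Klf1, Epor and Tfrc.

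Among the alpha globins, Hba-x (zeta globin, the first alpha-type chain) had 14.53, 17.06, 15.80 and 15.50 in Tbx5+/- numbers 1, 5, 6 and 7. In wild-type numbers 1, 5, 6 and 7 it had 14.68, 16.54, 15.93 and 15.89. The groups overlapped over almost their whole range, and the difference was -0.04 ± 0.53 (SE, n = 4 and 4, adjusted p = 0.971). Hba-a1 (the alpha chain kept in adult haemoglobin) had 14.31, 17.71, 17.09 and 16.63 in Tbx5+/- against 13.96, 17.08, 16.18 and 16.21 in wild-type. Its mutant value was the higher one within each of the 4 embryo numbers, by 0.35 to 0.91, while the groups still overlapped because number 1 was low in both. The difference was 0.58 ± 0.79 (adjusted p = 0.666), or 0.77 relative to the median probe. With the replicate block its adjusted p came to 0.0691.

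The beta-like globins also had higher means in the mutant, without passing the test. Hbb-bh1 (the earliest embryonic beta-like chain) had 15.66, 18.04, 18.12 and 17.78 in Tbx5+/- against 15.76, 17.27, 17.09 and 16.84 in wild-type on its brighter probe. Mutant samples 5, 6 and 7 stood above every wild-type sample, and mutant sample 1 below every one of them. The difference was 0.66 ± 0.55 (adjusted p = 0.467), and the second probe, which shares 40 of its bases, gave 0.69 ± 0.59 (adjusted p = 0.477). Hbb-y (the embryonic beta-like chain that accumulates later) had 13.43, 16.86, 16.05 and 15.91 in Tbx5+/- against 13.26, 16.23, 15.44 and 15 in wild-type. It was higher in the mutant within 4 of 4 numbers, by 0.17 to 0.91, but level with wild-type on average without wild-type 1 (0.00489). The difference was 0.58 ± 0.77 (adjusted p = 0.657), and the replicate block gave an adjusted p of 0.0769.

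The Hbb-bh1 result depended on sample 1. Without Tbx5+/- 1 the difference was 1.24 (adjusted p = 0.0415), and with both samples of number 1 left out it was 0.91 (adjusted p = 0.0251). Array weights, which give a discordant array less influence, gave 0.87 (adjusted p = 0.024). In these settings 3842, 3150 and 8716 of all probes passed as well. No other member gene passed in any setting tried, and the count of the 10 probes that passed was at most 2, both of Hbb-bh1.

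Signals of Hba-a1 and Hbb-y before scaling between arrays ran the other way for most numbers. The mean signal of Hba-a1 was 26865, 160183, 68915 and 69045 in Tbx5+/- numbers 1, 5, 6 and 7 against 22790, 187584, 89810 and 98141 in wild-type, so that the mutant sample was the dimmer one in numbers 5, 6 and 7. Hbb-y showed the same order, with 14595, 88898, 33372 and 41883 against 14054, 103713, 53774 and 42534. After each of the 5 scalings compared, the differences of Hba-a1 (0.25 to 0.94), Hbb-bh1 (0.21 to 1.04) and Hbb-y (0.33 to 0.95) were above 0, while that of Hba-x was -0.30 to -0.04 under VSN, quantile normalization and the deposited values and 0.32 and 0.28 under the percentile and median scalings. None of the globin spots was saturated, and the brightest, of Hbb-bh1, reached 72.1% of the brightest spot of its array.

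The ratio of the globins within an array was compared next, since it does not depend on one scale factor per array. Because the probes differ, only the change of this difference between groups can be read, not its level. Hbb-y minus Hbb-bh1 was -2.23, -1.18, -2.07 and -1.87 in Tbx5+/- against -2.50, -1.04, -1.65 and -1.84 in wild-type. The groups differed by -0.08 (exact permutation p = 0.857, two-sided). Hba-a1 minus Hba-x was -0.22, 0.65, 1.30 and 1.13 in Tbx5+/- against -0.72, 0.54, 0.26 and 0.32 in wild-type. The later alpha chain was thus higher relative to the earlier one in the mutant by 0.62, in 4 of 4 numbers, by 0.11 to 1.04, but with an exact permutation p of 0.2 (0.4 adjusted over the 2 pairs). Without wild-type 1 it was 0.34 and without Tbx5+/- 1 it was 0.93. Both differences were lowest in number 1 of each genotype. The smallest p that 4 against 4 arrays allow is 0.0286.

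**Figure D2:**
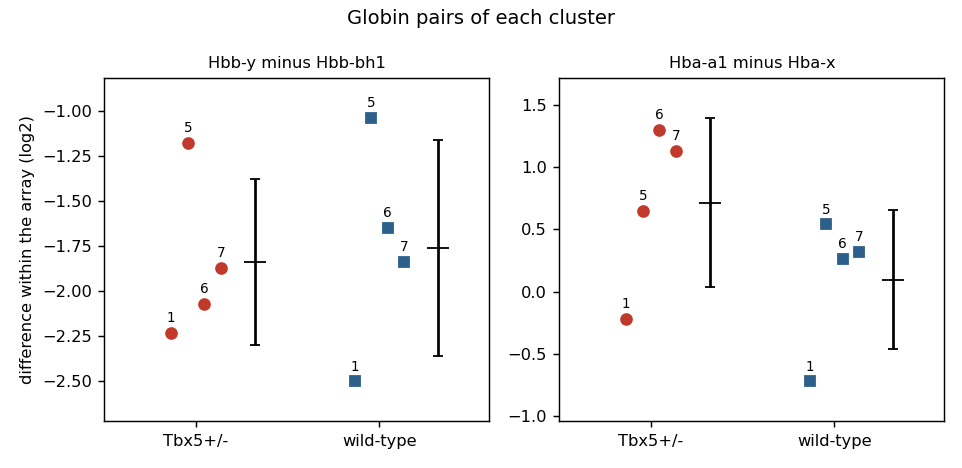
Difference in log2 signal between the globins of each cluster, 1 point an array labelled with its embryo number (left Hbb-y minus Hbb-bh1, right Hba-a1 minus Hba-x), with mean ± SD (n = 4) beside each group. In both panels number 1 is the lowest point of each group, and on the right the mutant mean is 0.62 higher with overlapping groups.

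For haem and iron the groups also overlapped. Alas2 (the erythroid enzyme for the first step of haem synthesis) had 10.05, 12.73, 11.26 and 11.51 in Tbx5+/- against 10.10, 12.81, 11.97 and 11.76 in wild-type. Its mutant value was the lower one in 4 of 4 numbers, by only 0.05 and 0.07 in numbers 1 and 5, and the difference was -0.27 ± 0.64 (adjusted p = 0.814). Tfrc (the receptor for iron-loaded transferrin, present on dividing cells of many kinds) had 10.60, 10.22, 10.54 and 10.79 in Tbx5+/- against 11.07, 10.52, 10.67 and 10.43 in wild-type. It varied least of the 9 genes, with a difference of -0.13 ± 0.21 (adjusted p = 0.714). Its probe was printed 10 times on each array, and the coefficient of variation of those spots was 2.58% to 9.58%.

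The regulators lay lower in the mutant samples, without passing the test. Klf1 (an erythroid zinc finger factor that binds globin promoters) had 9.28, 11.07, 9.40 and 10.33 in Tbx5+/- against 9.44, 11.50, 10.90 and 10.76 in wild-type. Within numbers the mutant was lower 4 of 4 times, and number 6, at -1.5, held most of the difference. That difference was -0.63 ± 0.50 (adjusted p = 0.442, and 0.115 with the replicate block). Epor (the erythropoietin receptor) had 9.78, 11.55, 10.26 and 10.68 in Tbx5+/- against 10.32, 11.91, 11.06 and 10.90 in wild-type. It was lower in 4 of 4 numbers, by 0.22 to 0.80, with a difference of -0.48 ± 0.42 (adjusted p = 0.487, and 0.103 with the block). Relative to the median probe these differences were -0.44 and -0.29. Slc4a1 (band 3, the chloride and bicarbonate exchanger of the red cell membrane) had 10.41, 13.30, 11.80 and 11.66 in Tbx5+/- against 10.40, 13.64, 12.23 and 12.25 in wild-type, a difference of -0.34 ± 0.71 (adjusted p = 0.786).

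**Figure D3:**
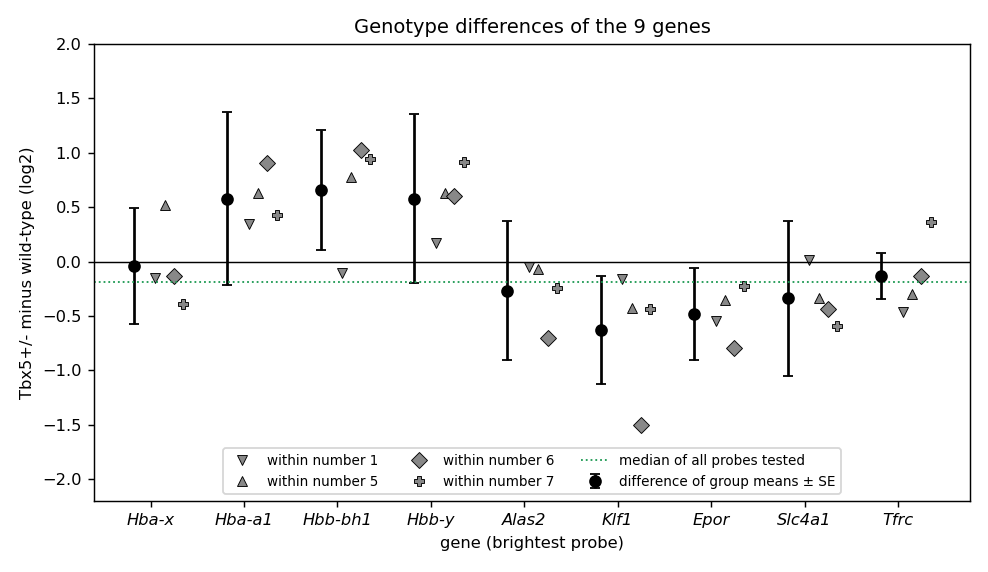
Tbx5+/- minus wild-type (log2) for each gene; black points are differences of group means ± SE (n = 4 and 4), grey symbols the differences within embryo numbers 1, 5, 6 and 7, and the dotted line the median of all probes tested (-0.19). Within numbers, Hba-a1 and Hbb-y lie above 0 and Alas2, Klf1 and Epor below 0 in 4 of 4.

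Klf1 (-0.65 to -0.30) and Epor (-0.50 to -0.16) stayed below 0 under the 5 scalings, whereas Alas2 and Tfrc turned above 0 after scaling to the 75th percentile (0.0916 and 0.23) and when the median of every array was set equal (0.0545 and 0.19). Slc4a1 turned only after the percentile scaling (0.0291) and Tfrc also after quantile normalization (0.12). The array label (array 1 for numbers 1 and 5, array 2 for numbers 6 and 7) held both groups equally. Within it, the differences on arrays 1 and 2 were 0.34 and 0.98 for Hbb-bh1, -0.29 and -0.97 for Klf1 and -0.38 and 0.12 for Tfrc, and no member passed a test of the change between the labels (lowest adjusted p of the interaction 0.947).

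One technical measure was lower in the mutant than in the wild-type sample of each embryo number. In 1754 transcripts with probes at least 1000 bases apart, the median of upstream minus downstream signal, each transcript centred on its mean, was 0.29, -0.16, -0.42 and -0.31 in Tbx5+/- against 0.35, 0.09, 0.00 and 0.11 in wild-type (exact permutation p = 0.171). With this measure as a covariate all 9 differences were below 0, and none passed (adjusted p of at least 0.385). Those of Hba-a1 (-0.76), Hbb-bh1 (-0.39) and Hbb-y (-0.72) had turned. Those of Hba-x (-0.69), Alas2 (-1.08), Klf1 (-1.07), Epor (-0.87) and Slc4a1 (-1.18) had become more negative, and Tfrc had -0.06.

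The second question was how the genes varied between embryo numbers. Most of them did vary. A limma F test among the 4 numbers, with genotype as an additive term, called 6 of the 10 probes, where 1.53% of all probes tested were called. These were the probes of Hba-x (adjusted p = 0.0432), Hba-a1 (0.0124), Hbb-y (0.0129), Alas2 (0.022) and Slc4a1 (0.0151), and the second of Hbb-bh1 (0.0408). The first Hbb-bh1 probe (0.0564), Epor (0.0624) and Klf1 (0.0925) did not pass, and Tfrc had an adjusted p of 0.642. The test was added after the values had been seen.

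Number 1 was the lowest and number 5 the highest by the mean of both arrays in every gene but Tfrc. For Slc4a1 the means of numbers 1, 5, 6 and 7 were 10.41, 13.47, 12.02 and 11.96, and numbers 6 and 7 differed by less than their arrays did. For Hba-a1 they were 14.13, 17.39, 16.64 and 16.42. The highest and lowest number differed by 3.26 for Hba-a1, 3.20 for Hbb-y, 3.06 for Slc4a1, 2.70 for Alas2 and 2.19 for Hba-x. Klf1 and Epor, the genes of the regulators, spanned 1.92 and 1.68. For Hbb-bh1 number 5, at 17.66, was hardly above number 6, at 17.61. Tfrc had its highest mean in number 1 (10.83) and its lowest in number 5 (10.37).

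Both arrays of number 1 lay below the other 6 for Hba-x, Hba-a1, Hbb-bh1, Hbb-y, Alas2 and Slc4a1, 6 of the 9 genes, where 17.4% of all gene names tested did. Embryo number took 74.5% to 96.6% of the sum of squares of the 8 genes other than Tfrc, 49.0% for Tfrc and, in the median over all probes tested, 45.6%. Numbers 1 and 5 shared the array label, so the widest contrast lay within one label. Without both number 1 arrays, or without either Tbx5+/- 5 or wild-type 5, 0 of the 10 probes passed (and 0 of all probes). Without Tbx5+/- 7 or wild-type 7, 3 passed. Without Tbx5+/- 1 alone 4 passed, and without wild-type 1 alone 8 passed, with 2766 of all probes. The upstream minus downstream measure was also highest in the number 1 arrays (0.29 and 0.35), and its part in the differences between numbers was not tested.

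Over the 8 arrays Pearson's r between pairs of the 8 genes other than Tfrc was 0.48 to 0.99 (28 pairs). It was highest for Hba-a1 with Hbb-y and lowest for Hbb-bh1 with Klf1. Tfrc correlated with them at -0.73 to -0.04. These arrays share 4 embryo numbers and the low number 1 samples, and the values describe these arrays only.

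Other genes of the lineage were taken from lists by role. Of 93 names, 79 were on the array and 70 were tested. Between genotypes 0 of the 70 passed, with 47 below 0 and a median of -0.19, against -0.13 over all gene names tested. With the replicate block 5 passed, all lower in Tbx5+/-, which is 7.14% where 8.2% of all gene names tested did. They were Ppox (a late enzyme of haem synthesis), Pim1 (a kinase induced by cytokine signalling) and the transcriptional regulators Cbfa2t3, Sox6 and Bcl11a.

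Among embryo numbers 14 of the 70 (20%) passed, against 1.73% of all gene names tested. All of the 3 tested genes among other globins and the globin chaperone did: Hba-a2, Hbb-b1 (an adult beta chain) and Eraf, the alpha globin chaperone. Hba-a2 is not separate from the member Hba-a1, as their signals cannot be told apart. Of 14 membrane and skeleton genes 6 passed (Rhd, Kel, Ank1, Ermap, Add2 and Epb4.2). Rhd, the Rh blood group protein, had 7.28, 11.18, 10.17 and 9.95 in Tbx5+/- and 7.67, 10.95, 9.83 and 9.31 in wild-type. Like Slc4a1 it was lowest in number 1 and highest in number 5 of both genotypes. As no probe of the array passed without the number 1 arrays or without either number 5 array, these list counts were 0 there as well.

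Fewer genes passed in the other lists. Of 12 haem synthesis genes other than Alas2, 0 passed, and their median of number 1 minus the other numbers was -0.26. Of 10 iron handling genes 2 passed: the mitochondrial iron importer Slc25a37 and Trfr2, the second transferrin receptor. Of 10 genes of Epo receptor signalling 0 passed (median 0.03), and of 7 red cell enzymes only Blvrb. Of 14 transcription factors Gfi1b and Bcl11a passed. Bcl11a (a repressor of embryonic globin genes that also acts in other tissues) had the widest gap, with 6.02, 11.31, 10.97 and 11.36 in Tbx5+/- and 7.90, 12.57, 12.26 and 12.38 in wild-type, and number 1 minus the other numbers was -4.85. Gata1, the master factor of the lineage, had -0.61 (adjusted p = 0.0764).

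**Figure D4:**
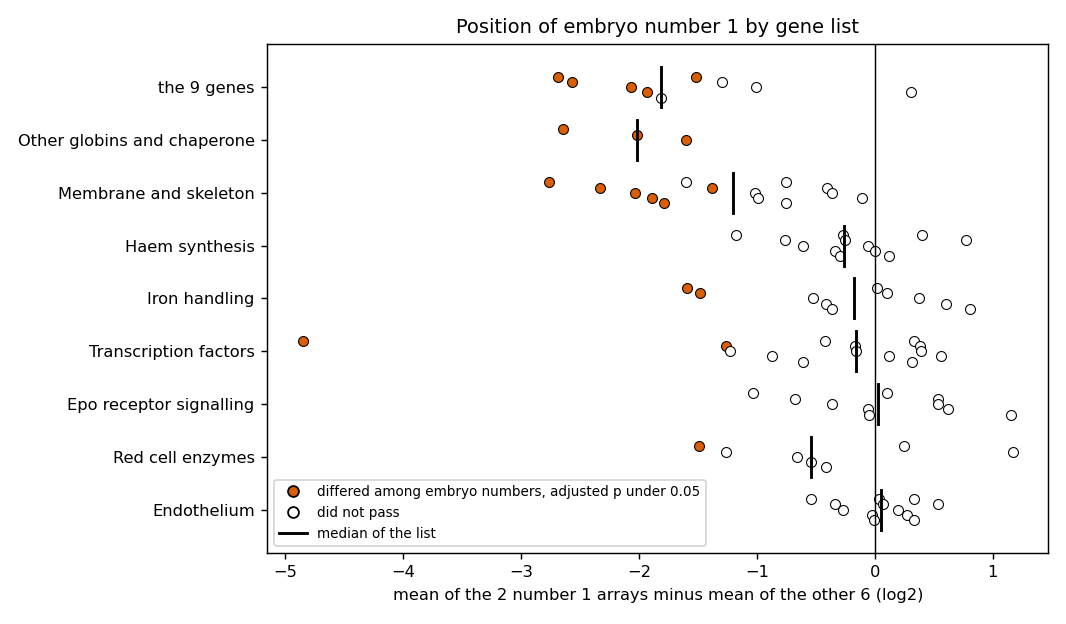
Mean of the 2 number 1 arrays minus mean of the other 6 (log2) for each gene, by list; filled points passed the F test among embryo numbers (limma, adjusted p under 0.05), open points did not, and bars are list medians. The 9 genes (median -1.81), other globins (-2.02) and membrane genes (-1.20) lie to the left, and endothelium lies around 0 (0.05).

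Between genotypes the extremes of these lists did not pass without the block. The most positive difference in each list was that of Eraf (0.67), Socs3 (0.65), Tal1 (0.62), Ireb2 (0.61), Tmem14c (0.59), Fn3k (0.47) and Rhd (0.20), with adjusted p of at least 0.209. The most negative in each list of more than 3 tested genes was that of Bcl11a (-1.36), Pim1 (-1.24), Epb4.9 (-1.10), Cat (-0.76), Ppox (-0.75) and Trfr2 (-0.36), with adjusted p of at least 0.148. Hbb-b1 had the smallest difference among other globins, 0.36. Over all 70 genes the lowest adjusted p was 0.0959, for Cbfa2t3 (-1.18).

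Markers of other cell types give the setting of these values. With the replicate block 5 of the 10 pSHF genes, Tbx5 among them, were called lower in Tbx5+/- (50%). Over all gene names tested this share was 8.2%, and in the cardiomyocyte and neural tube lists 0 were called. Of 12 endothelial genes 0 differed among numbers, and the mean level of the list was 11.03, 11.26, 10.66 and 11.15 in Tbx5+/- and 11.54, 11.42, 11.34 and 11.58 in wild-type, with number 1 near the others in both. All 4 mutant means of this list were below all 4 wild-type means. Relative to the array median the groups overlapped, at 1.32, 1.43, 1.19 and 1.40 against 1.47, 1.37, 1.45 and 1.54. In the unpaired limma fit 5 of its 12 genes (41.7%) had an unadjusted p under 0.05, all lower in Tbx5+/-. Over all gene names tested 15.4% were lower at that threshold. Kdr and Eng passed with the replicate block (adjusted p = 0.0347 and 0.0485). That is 16.7% called lower, against 8.2% of all gene names tested. Of 9 macrophage genes on the array only Cd68 and Fcer1g were tested. Those not well above background on all arrays of either group included Csf1r, Emr1, Ptprc and Aif1. Of 8 megakaryocyte and platelet genes 4 were tested and 0 called. Pf4, a platelet chemokine, had 8.38 and 8.65 in the number 1 samples and 9.6 to 12 in the others (adjusted p = 0.0542). Of 11 yolk sac and liver bud genes 7 were tested, and none was called without the block. All 7 had genotype differences below 0, as had 8520 of the 13951 gene names tested. The mean level of this list ranged from 7.73 in Tbx5+/- 1 to 11.63 in wild-type 1, so the number 1 samples held both ends of that range. Trf, the transferrin gene, passed with the replicate block (-1.81, adjusted p = 0.0347). That is 14.3% of the 7, where 8.2% of all gene names tested were called lower. Low values in number 1 were not limited to blood genes. Nppa, a natriuretic peptide of heart muscle and 1 of 10 cardiomyocyte genes, passed the F test among numbers (number 1 minus the others -2.19, adjusted p = 0.0395), as did Dcx, a protein of young neurons and 1 of 5 neural tube genes tested (-2.22, adjusted p = 0.0242). Foxf2 of the pSHF list (-2.18) and Tubb3 of the neural list (-1.70) were low there without passing. As whole lists, the cardiomyocyte, neural tube and pSHF genes had medians of number 1 minus the others of -0.37, -0.51 and 0.04. Actc1 (0.22) and Tnni1 (0.15) of the cardiomyocyte list and Pax6 (1.67) and Neurog2 (0.11) of the neural list were higher in number 1. The part of other tissue in the differences was not tested.

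The promoters of the genes that varied together are shown for the letters they hold. RefSeq promoter windows on GRCm38.p6 were matched by symbol for 7 of the 9 genes, in 8 windows, and Hbb-bh1 and Slc4a1 had none. In the 250 bases before the start, both strands were searched for GATAA (bound by GATA factors), CACCC (bound by Klf factors) and CCAAT. The last 190 of these bases are given for 4 genes, read 5′ to 3′ on the gene's strand, with matches in capitals.
Hba-x: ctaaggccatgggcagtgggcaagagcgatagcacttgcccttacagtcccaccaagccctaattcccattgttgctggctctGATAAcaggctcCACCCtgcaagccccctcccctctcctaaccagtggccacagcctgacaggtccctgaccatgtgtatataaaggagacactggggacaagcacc
Hba-a1: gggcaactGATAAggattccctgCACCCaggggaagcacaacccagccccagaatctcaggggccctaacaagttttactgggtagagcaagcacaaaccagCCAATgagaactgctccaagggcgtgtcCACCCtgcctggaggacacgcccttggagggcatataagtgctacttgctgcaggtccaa
Hbb-y: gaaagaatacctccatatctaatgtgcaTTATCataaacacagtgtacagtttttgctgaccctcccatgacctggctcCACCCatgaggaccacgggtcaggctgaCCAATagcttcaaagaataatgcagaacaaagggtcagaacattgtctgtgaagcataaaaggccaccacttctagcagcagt
Alas2: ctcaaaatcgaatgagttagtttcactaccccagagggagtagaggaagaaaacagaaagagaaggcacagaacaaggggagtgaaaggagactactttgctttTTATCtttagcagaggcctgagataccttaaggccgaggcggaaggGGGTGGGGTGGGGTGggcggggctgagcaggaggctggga
These lie at chr11:32276410-32276599, chr11:32283482-32283671, chr7:103853208-103853397 and chrX:150547227-150547416. GATAA was in the windows of Hba-x, Hba-a1, Hbb-y, Alas2, Klf1 and Epor, 1 match each, at 54 to 182 bases before the start, and in neither Tfrc window. Of all 32851 windows of this length 22.6% held it. CACCC was in all 8 windows, against 52% of all windows. CCAAT was in those of Hba-a1, Hbb-y and Klf1 and in 1 of Tfrc, against 33.8%. In Alas2 the 3 CACCC matches lie end to end in the run of capitals near the start. The Hba-a1 and Hba-a2 windows shared a run of 297 of 300 bases. A match describes letters only.

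Genes with the most similar profile were ranked by Pearson's r over the 8 arrays with the mean of the members' standardized, median-centred values. The 5 most like the 4 globins were Hba-a2 (0.998), Slc6a9 (a glycine transporter, 0.996), Chgb (0.987), Ncf4 (0.987) and Kcne1l (0.986). Signal of Hba-a2 cannot be told apart from that of Hba-a1, which is part of this profile, so its rank adds nothing. Chgb had 7.92, 11.80, 10.87 and 10.72 in Tbx5+/- and 7.45, 11.42, 9.93 and 9.79 in wild-type and ranked the 8 arrays as the globin profile did. The 5 most like Alas2, Klf1, Epor and Slc4a1 were Kel (0.992), Hoxa7 (0.981), Cd97 (now Adgre5, 0.98), Runx2 (0.98) and Epb4.2 (now Epb42, 0.979). Kel, a blood group membrane protein, had 7.13, 10.33, 8.39 and 9.10 in Tbx5+/- and 7.47, 10.77, 9.58 and 9.61 in wild-type. On the VSN scale the genes most like the globins were at or above the wild-type sample in the mutant in numbers 6 and 7. Kel, Hoxa7, Cd97, Runx2 and Epb4.2 were below it there. All were chosen by their likeness to the profiles. Directions depended on the scale: relative to the array median, Alas2 (1.76 against 1.71) and Epor (0.93 against 0.85) were not below wild-type in number 7.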

How the data were processed

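RNA of 8 pSHF samples was hybridized to 1 array each (Cy3, 1 colour). Per the file headers, the authors deposited linear intensity values, read by Agilent Feature Extraction 10.5.1.1. They also deposited a table of log2 values, corrected for background and normalized by VSN. Here the median background was subtracted from the mean signal, 1115 outlier spots were left out, spots of a probe were averaged, and VSN was rewritten in R 4.3.3 because the package was missing (90% of probes kept, 7 iterations). On 22405 shared probes r with the deposited values was at least 0.9999. Scripts were tested on simulated data.

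Probes well above background on all 4 arrays of a group were compared with limma 3.58.1 (lmFit, eBayes, two-sided, Benjamini-Hochberg over 20031 probes, threshold 0.05). The SAM test of the methods was not used here. A gene is represented by its brightest tested probe. Single values were tested by exact permutation over 70 assignments. The number of arrays limits the precision.

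Embryo numbers come from the titles. Deviations of same-numbered samples from their group means correlated over probes at 0.44, 0.40, 0.59 and 0.14 for numbers 1, 5, 6 and 7. Between different numbers the correlations ran from -0.60 to 0.37, so number 7 lay within that range. The numbers were taken to pair the samples, although number 7 did not stand out.

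The named genes were every probe of the 9 members, in each list the genes with the largest and smallest difference and any called, the 5 genes most like each profile, and Tbx5. Members and lists were chosen with earlier results of these data known. Files' gene names are used, with current symbols from RefSeq. Alternatives were other scalings (75th percentile with a floor at percentile 1, normexp with an offset of 50 and quantiles, deposited values, median centring), filters, array weights, blocks by array label and number, and leaving out arrays.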

Additional observations from a re-analysis of the deposited data

Results flagged for a closer look

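Within the 4 Tbx5+/- samples, Hbb-bh1 in sample 1 (15.66) lay far below the others (17.78 to 18.12), with a gap of 0.863 of the group's whole range. Of 22 groups of 4 samples examined this was the only one so far apart, and chance marks about 1 in 20 groups.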

How the results depend on the processing

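No probe passed in the unpaired comparison of genotypes (0, and 4385 at an unadjusted p under 0.05). With the replicate block 2218 passed and with array weights 8716, of which 0 and 2 were member probes, and leaving out both arrays of number 1, chosen after seeing the data, gave 3150 and 2. Leaving out 1 array gave 0 to 3842 probes and 0 to 1 member probe. The replicate block changed no call of a member. Directions turned for Hba-x (0.32 after percentile scaling, 0.28 centred), Alas2 (0.0916, 0.0545), Slc4a1 (0.0291 after percentile scaling) and Tfrc (0.23, 0.19, 0.12 after quantile normalization, 0.0889 with array weights), and with the covariate for upstream minus downstream signal, added later, for Hba-a1 (-0.76), Hbb-bh1 (-0.39) and Hbb-y (-0.72). Leaving out 1 array gave -0.48 to 0.36 for Hba-x, -0.0541 to 1.29 for Hba-a1, 0.33 to 1.24 for Hbb-bh1, 0.00489 to 1.29 for Hbb-y, -0.79 to 0.18 for Alas2, -1.03 to -0.35 for Klf1, -0.81 to -0.19 for Epor, -0.92 to 0.16 for Slc4a1 and -0.22 to -0.000523 for Tfrc. For Hbb-y minus Hbb-bh1 the groups differed by 0.12 after quantile normalization and -0.33 to 0.16 without 1 array, and for Hba-a1 minus Hba-x by 0.34 to 0.93 without 1 array. The later F test among numbers called 307 probes, 171 after quantile normalization, 61 with array weights, 180 without the filter, 0 without number 1 and 0 to 2766 without 1 array, and 6 member probes, 0 without number 1 and 0 to 8 without 1 array. The cause of these shifts was not tested. Klf1 and Epor kept their direction in all 20 alternatives. The lists of other erythroid genes were not recomputed under the other alternatives.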
